A study of Mus musculus with 4 samples.

Results

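The genes described here are 37 that drive or mark the cell division cycle, read in epidermal Langerhans cells with and without the aryl hydrocarbon receptor (AhR). Of the 37 listed, 36 had a probe set that the platform annotation gives to that gene alone, out of 12393 such genes in all, and Ccnb1 had none. The 36 comprise 11 genes of DNA replication, 9 of G1/S control, 13 of mitosis and 3 inhibitors of cyclin-dependent kinases, and each was read on its brightest probe set. No filter on low values was applied, so all 36 were tested.

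There were 4 arrays from 2 groups. The AhR-deficient group came from mice lacking exon 2 of Ahr, with 2 arrays, and the comparison group from wild-type C57BL/6 mice, also with 2 arrays. The mice had received no treatment, their age was not given in the sources used here, and in both groups the epidermal cells spent 16 hours in culture before live MHC class II-positive cells were sorted to over 95% purity. The labels call the arrays of a group biological replicates and do not give the number of mice per array, and they name no restriction of the deletion to Langerhans cells. With 2 arrays per group, no exact permutation test could go below a two-sided p of 0.333, so the tests given are those of limma, fitted over all 22626 probe sets. Signal of the targeted gene was not lower in the deficient cells: the brighter Ahr probe set read 8.55 and 8.60 there against 7.61 and 8.23 in the wild type (difference 0.66, SE 0.23, limma adjusted p = 0.811), and the dimmer one 6.38 and 6.41 against 6.27 and 6.30. No file used here places these probe sets in exon 2, so they do not check the genotype labels.

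A dividing cell passes from G1 into S phase when cyclin D and cyclin E kinases inactivate the retinoblastoma protein and free E2F factors, which switch on replication genes. Mitotic genes follow later, in G2, and small inhibitor proteins hold the kinases back. Langerhans cells renew themselves at a low rate in the epidermis, whereas maturing dendritic cells that leave it are largely non-dividing. The sorted cells carried Cd207, which encodes langerin, at log2 signals of 11.21 and 11.71 without AhR against 11.00 and 12.06 in the wild type. Median log2 signals of the marker lists ran from 9.79 to 10.45 over the arrays for Langerhans cells. They ran from 6.25 to 7.48 for macrophages and monocytes and from 5.81 to 5.98 for melanocytes. For T cells they ran from 4.99 to 5.31, and for keratinocytes from 4.66 to 5.55. On all 4 arrays, 0 of 12 Langerhans cell markers lay below the 25th percentile. The same held for 0 of 5 melanocyte and 1 of 10 T cell markers, so that count cannot tell the cell type. Cdh1, the E-cadherin gene of the Langerhans cell list, was close to that percentile, at 5.27 and 4.40 against 4.06 and 4.68. Of the 12 Langerhans cell markers, 4 were higher and 2 lower without overlap in AhR-deficient cells, beside 18.8% and 16.6% of all genes. Of the 12, 0 passed in limma (smallest adjusted p = 0.306). An unadjusted limma p under 0.05 was reached by 3 of the higher and 1 of the lower ones, beside 3.50% and 3.04% of all genes. The antigen-presentation genes H2-Aa, H2-Ab1 and Cd74 differed by 1.31 (SE 0.14), 1.24 (SE 0.27) and 0.93 (SE 0.12) and Itgax by 0.14 (SE 0.10), while the growth factor receptor genes Csf1r and Flt3 differed by -1.05 (SE 0.26) and -0.42 (SE 0.16). The part of these differences in the cell cycle values was not tested.

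Promoters of 4 members are shown because the motifs in them differ by role. Mitotic genes are known to be repressed in resting cells through the cell cycle genes homology region (CHR), often next to a CCAAT box bound by NF-Y, while replication genes are known for E2F sites. The stretches below are the 150 bases before the RefSeq transcription start on GRCm38.p6, all from genes on the minus strand, written 5′ to 3′ along the gene: Cdk1 at chr10:69352913-69353062, Top2a at chr11:99024190-99024339, Mki67 at chr7:135716380-135716529 and Mcm6 at chr1:128359706-128359855. Capitals mark a CHR (TTTGAA, or TTCAAA on the other strand) or a CCAAT box (CCAAT or ATTGG) in the first 3, and an E2F motif (TTTGGCGC) or a CCAAT box in Mcm6.
Cdk1: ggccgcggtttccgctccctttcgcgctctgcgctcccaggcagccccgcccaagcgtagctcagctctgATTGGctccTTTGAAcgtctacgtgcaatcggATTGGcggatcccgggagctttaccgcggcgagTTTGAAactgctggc
Top2a: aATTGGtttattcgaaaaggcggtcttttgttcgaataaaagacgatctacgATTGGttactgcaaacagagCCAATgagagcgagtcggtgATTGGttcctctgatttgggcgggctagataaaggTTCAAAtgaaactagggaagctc
Mki67: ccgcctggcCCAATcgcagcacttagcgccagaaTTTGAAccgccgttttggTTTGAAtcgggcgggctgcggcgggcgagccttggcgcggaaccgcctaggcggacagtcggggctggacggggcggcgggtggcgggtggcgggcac
Mcm6: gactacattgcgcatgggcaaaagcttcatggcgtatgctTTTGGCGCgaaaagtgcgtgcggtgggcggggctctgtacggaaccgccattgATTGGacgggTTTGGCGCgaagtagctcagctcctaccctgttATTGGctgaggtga

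The CHR motif TTTGAA, on either strand, was present in 8 of 12 promoters of mitotic members (66.7%), against 17.9% of all 32851 RefSeq promoters of 300 bases. All 8 also held a CCAAT box, a pairing seen in 6.95% of all promoters. The CCAAT box alone was common in both roles. It stood in 11 of 12 mitotic (91.7%) and 9 of 11 replication promoters (81.8%), against 37.4% of all promoters. The 8 with both motifs were those of Mki67, Top2a, Cdk1, Ccnb2, Cdc20, Aurka, Plk1 and Ube2c. Birc5, Bub1, Cdc25b and Ccnb1 had no TTTGAA in this window. In contrast, 1 of 11 replication promoters held it.

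E2F motifs showed the reverse arrangement. TTTCCCGC or TTTGGCGC stood in 5 of 11 replication promoters (45.5%), namely those of Mcm3, Mcm5, Mcm6, Mcm7 and Cdc6, and in 0 of 12 mitotic promoters, against 1.56% of all promoters. The GCGTG core that AhR and its partner Arnt recognise was present in 17 of 35 member promoters (48.6%), against 32.4% of all promoters. By role, it was in 6 of 12 mitotic, 4 of 11 replication, 4 of 7 G1/S control and 3 of 5 inhibitor promoters. Overlapping matches were counted, matches are letters only and not binding sites, and the members Mcm4, Aurkb, Ccna2, Ccnd1, Ccnd2 and Rb1 had no entry.

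The comparison asks whether transcripts of the cell cycle differ in Langerhans cells that lack AhR. No member passed in limma after Benjamini-Hochberg adjustment over all probe sets (smallest adjusted p = 0.710), where 0.0177% of probe sets did. At an unadjusted p under 0.05 there were 5 higher members, Top2a, Birc5, Cdk1, Mki67 and Ccnd1, and 0 lower, where 3.50% of all genes were higher and 3.04% lower. Members whose arrays did not overlap numbered 14 higher and 6 lower in AhR-deficient cells of 36, beside 18.8% of all genes higher and 16.6% lower. The median log2 difference, AhR-deficient minus wild-type, was 0.04 over the members and 0.01 over all genes. In bulk RNA of sorted cells, a different number of dividing cells and a different transcript amount per cell cannot be told apart.

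**Figure D1:**
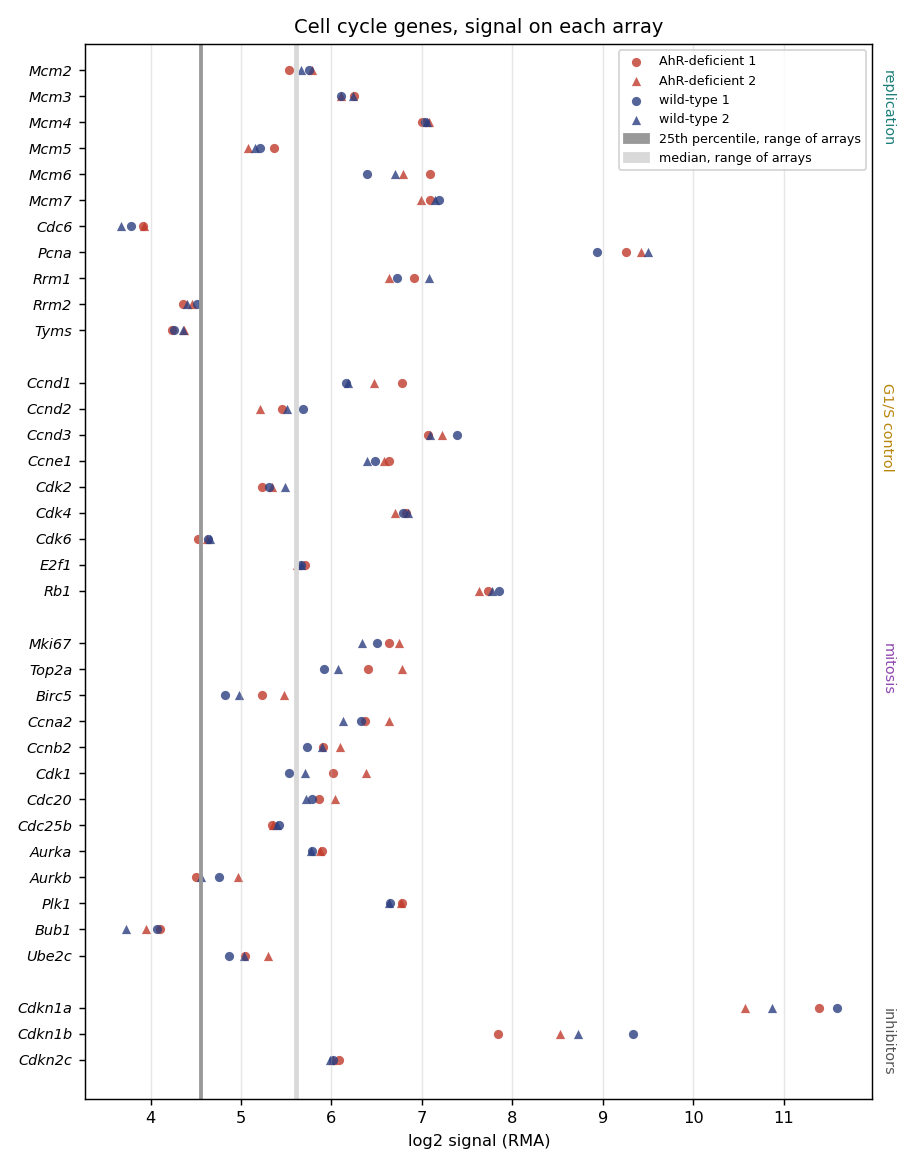
Log2 signal (x axis) of 36 cell cycle genes on each of 4 arrays, with AhR-deficient arrays in red, wild-type arrays in blue, replicate 1 as circles and replicate 2 as triangles; grey bands span the arrays' 25th percentiles and medians. For Top2a, Cdk1 and Birc5 both red points lie to the right of both blue points, while the points of Mcm4 and E2f1 nearly coincide.

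Mitotic genes made up most of the higher members. Of 13 measured, 10 had both AhR-deficient values above both wild-type values and 1, Cdc25b, had both below. The 10 are 76.9% of the 13, beside 18.8% of all genes. The median difference was 0.19. Leaving out AhR-deficient replicate 1 made that median 0.31, and leaving out replicate 2 of that genotype made it 0.14. None of the 13 passed the adjusted test (limma, adjusted p from 0.710 to 0.981). An unadjusted limma p under 0.05 was reached by 4, all higher, where 3.50% of all genes were higher and 3.04% lower at that level.

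Top2a, the topoisomerase that untangles sister chromatids, had log2 signals of 6.41 and 6.78 without AhR against 5.91 and 6.08 in the wild type. Both AhR-deficient arrays lay above both wild-type arrays, AhR-deficient replicate 2 being the highest. The difference was 0.60 (SE 0.16, n = 2 per genotype, limma adjusted p = 0.710), or 1.51-fold. A dimmer Top2a probe set showed no such gap: its signals were 4.46 and 4.39 against 4.46 and 4.43, below the arrays' 25th percentiles of 4.54 to 4.57, and it differed by -0.02 (SE 0.08).

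Cdk1, the kinase that starts mitosis, read 6.02 and 6.39 without AhR against 5.53 and 5.71 in the wild type. The arrays stood in the same order as for Top2a, and the difference was 0.58 (SE 0.16, limma adjusted p = 0.710). Birc5, which encodes survivin of the chromosomal passenger complex, read 5.23 and 5.48 against 4.82 and 4.97. It repeated that order, below the array median on all 4 arrays, with a difference of 0.46 (SE 0.12, limma adjusted p = 0.710).

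Mki67, the gene of the proliferation antigen Ki-67, read 6.64 and 6.75 without AhR against 6.50 and 6.34 in the wild type. The groups were separated by 0.137, and the difference was 0.27 (SE 0.10, 95% interval 0.00 to 0.54, limma adjusted p = 0.825). Here wild-type replicate 2 was the lowest array, not wild-type replicate 1 as for Top2a, Cdk1 and Birc5.

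Both measured mitotic cyclins had arrays that did not overlap, with unadjusted p above 0.05. Ccna2, which encodes cyclin A2 of S and G2 phase, read 6.37 and 6.64 against 6.33 and 6.12, a difference of 0.28 (SE 0.14). Its other probe set differed by 0.21 (SE 0.13), with overlapping arrays. Ccnb2, which encodes cyclin B2, read 5.90 and 6.10 against 5.72 and 5.90, a difference of 0.19 (SE 0.11). The lower AhR-deficient value of Ccnb2 exceeded the higher wild-type value by only 0.0072. That separation ended when the arrays were centred on their medians or quantile-normalised again.

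Cdc20, the mitotic activator of the anaphase-promoting complex, read 5.86 and 6.03 without AhR against 5.79 and 5.72 in the wild type, a difference of 0.19 (SE 0.10). The other probe sets of Cdc20 disagreed: 1 differed by 0.32 (SE 0.08, limma adjusted p = 0.682) without overlap and 1 by -0.01 (SE 0.08). Ube2c, the ubiquitin-conjugating enzyme of that complex, read 5.04 and 5.30 against 4.86 and 5.04, a difference of 0.22 (SE 0.13). Its groups were 0.000754 apart, and they overlapped under either rescaling, so that 8 mitotic members, not 10, were higher without overlap there and 1 was lower.

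The other mitotic kinases differed by less than Cdk1. Plk1, polo-like kinase of centrosome and spindle, read 6.78 and 6.77 against 6.64 and 6.63, and Aurka, the spindle-pole Aurora kinase, read 5.89 and 5.87 against 5.78 and 5.77. Replicates of each genotype lay close together for both, with differences of 0.13 (SE 0.07) and 0.10 (SE 0.07). Aurkb, the passenger-complex kinase that acts with survivin, read 4.51 and 4.97 against 4.76 and 4.55, and the AhR-deficient arrays were its lowest and its highest. Bub1, a spindle checkpoint kinase, read 4.10 and 3.95 against 4.07 and 3.73, below the 25th percentile on all arrays. Cdc25b, the phosphatase that activates Cdk1 at entry into mitosis, read 5.34 and 5.35 against 5.42 and 5.40, a difference of -0.06 (SE 0.07).

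**Figure D2:**
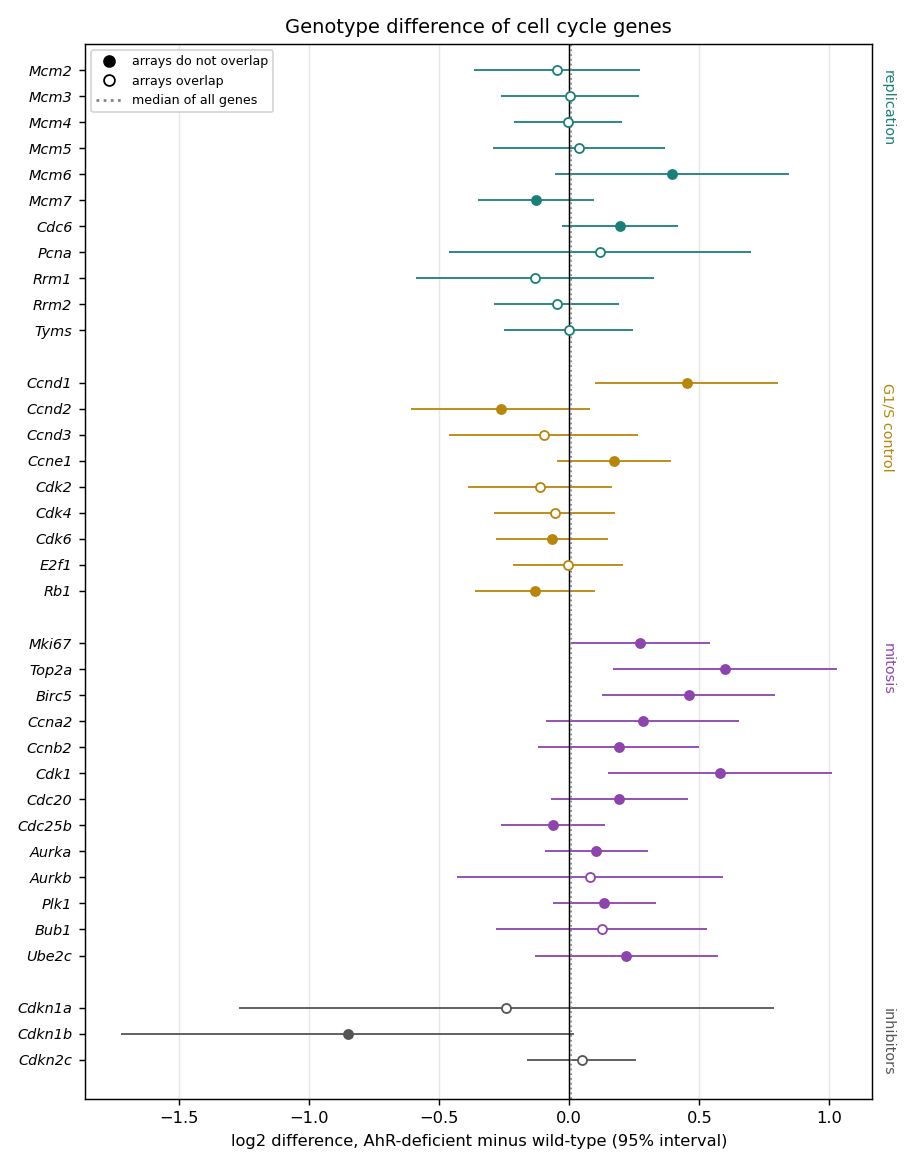
Log2 difference (x axis), AhR-deficient minus wild-type, of each of 36 genes with its 95% interval from limma; filled points have arrays that do not overlap between genotypes, and the dotted line is the median of all genes. Mitotic genes lie mostly to the right, up to 0.60 for Top2a, and Cdkn1b lies farthest to the left at -0.85.

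Replication genes had differences on both sides of 0. The median of the 11 was -0.003. Without overlap, 2 were higher (18.2%) and 1 lower (9.09%), beside 18.8% and 16.6% of all genes. In limma 0 passed, with 0 also at an unadjusted p under 0.05, where 3.50% of all genes were higher and 3.04% lower. The replicative helicase is a ring of 6 MCM proteins. Among its genes, Mcm2 differed by -0.05 (SE 0.12) and Mcm5 by 0.04 (SE 0.12), with Mcm3 and Mcm4 in between, and the arrays of all 4 overlapped. The 95% interval for Mcm4 ran from -0.21 to 0.20. Other Mcm3 probe sets differed by -0.19 (SE 0.19), 0.12 (SE 0.08), 0.19 (SE 0.15) and -0.07 (SE 0.08). Of these, only the set at 0.12 was without overlap. The other probe sets of Mcm4 and Mcm2 differed by -0.35 (SE 0.24) and 0.01 (SE 0.08), with overlap.

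The other helicase genes, Mcm6 and Mcm7, did not overlap and differed in opposite directions. Mcm6 read 7.09 and 6.79 without AhR against 6.39 and 6.70 in the wild type, a difference of 0.39 (SE 0.17, limma adjusted p = 0.857). AhR-deficient replicate 2 and wild-type replicate 2 were only 0.0849 apart. Its other probe set differed by -0.08 (SE 0.11). Mcm7 was lower, with 7.09 and 6.99 against 7.19 and 7.15, a difference of -0.13 (SE 0.08). The other Mcm7 probe sets differed by -0.03 (SE 0.08), 0.004 (SE 0.14) and -0.34 (SE 0.15), the last lower without overlap.

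Cdc6, which loads the helicase at origins, read 3.91 and 3.93 against 3.78 and 3.67, a difference of 0.19 (SE 0.08). Those signals lay below the 25th percentile of every array, as did those of Rrm2 and Tyms, so a change there may be understated. Rrm2, the small subunit of ribonucleotide reductase, differed by -0.05 (SE 0.09), and Tyms, thymidylate synthase, by -0.003 (SE 0.09). Another Tyms probe set, also dim, was higher without overlap by 0.31 (SE 0.12), and the remaining one differed by -0.01 (SE 0.09). Rrm1, the large reductase subunit, read 6.91 and 6.64 against 6.73 and 7.08, and the arrays of each genotype differed from each other by more than the genotypes did.

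Pcna, the sliding clamp of DNA polymerases, also serves DNA repair. Its values were 9.25 and 9.42 without AhR against 8.93 and 9.50 in the wild type. The wild-type arrays held both the lowest and the highest value, and the difference of 0.12 (SE 0.21) was smaller than their gap.

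In G1/S control, the D-type cyclins differed from each other. Ccnd1, which encodes cyclin D1, read 6.78 and 6.47 without AhR against 6.16 and 6.18 in the wild type. The groups did not overlap, and the difference was 0.45 (SE 0.13, limma adjusted p = 0.732). Another Ccnd1 probe set gave 0.48 (SE 0.12) with values of 4.92 and 4.63 against 4.28 and 4.30, whereas the remaining one, at 6.23 to 6.37, gave -0.05 (SE 0.08).

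Ccnd2, which encodes cyclin D2, read 5.45 and 5.21 against 5.69 and 5.50. Here both AhR-deficient arrays were lower, by 0.0505 at the nearest, and the difference was -0.26 (SE 0.13, limma adjusted p = 0.867). Its 6 other probe sets ranged from -0.42 to 0.04 and all overlapped. Ccnd3, which encodes cyclin D3, differed by -0.10 (SE 0.13) with overlap.

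The partners of these cyclins differed little. Cdk4 and Cdk6, the kinases bound by D cyclins, differed by -0.06 (SE 0.09) and -0.07 (SE 0.08), and Cdk2, the kinase of cyclins E and A, by -0.11 (SE 0.10). Ccne1, which encodes cyclin E1, read 6.64 and 6.58 against 6.48 and 6.39, higher without overlap by 0.17 (SE 0.08). Rb1, the retinoblastoma protein gene, read 7.74 and 7.63 against 7.86 and 7.78, lower without overlap by a difference of -0.13 (SE 0.08). E2f1, the activator factor that it restrains, read 5.70 and 5.62 against 5.67 and 5.67, a difference of -0.004 with a 95% interval of -0.22 to 0.21. Over the 9 genes of this role the median was -0.07. Without overlap, 2 were higher (22.2%) and 3 lower (33.3%), beside 18.8% and 16.6% of all genes.

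Among the inhibitors, Cdkn1b, which encodes p27, had the greatest difference in size of any member. Its log2 signals were 7.84 and 8.52 without AhR against 9.33 and 8.73 in the wild type. Both AhR-deficient arrays were lower, but each genotype's arrays were themselves 0.686 and 0.606 apart. The difference was -0.85 (SE 0.32, 95% interval -1.72 to 0.02, limma adjusted p = 0.837), or 0.554-fold, which became -0.51 with AhR-deficient replicate 1 left out and -1.20 with replicate 2 of that genotype left out. A second probe set of Cdkn1b, at 4.09 to 4.20 on all arrays, differed by -0.004 (SE 0.09).

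Cdkn1a, which encodes p21, varied more within each genotype than between the genotypes. It read 11.39 and 10.57 without AhR against 11.58 and 10.87 in the wild type. Replicate 1 was higher than replicate 2 in both genotypes, by 0.819 and 0.718, which exceeded the genotype difference of -0.24 (SE 0.38). Its other probe set read 9.38 and 8.99 against 9.43 and 8.80 and showed the same replicate order. By the labels, the replicate numbers pair no arrays. Cdkn2c, which encodes the Cdk4 and Cdk6 inhibitor p18, differed by 0.05 (SE 0.08) and varied by 0.10 over all 4 arrays.

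**Figure D3:**
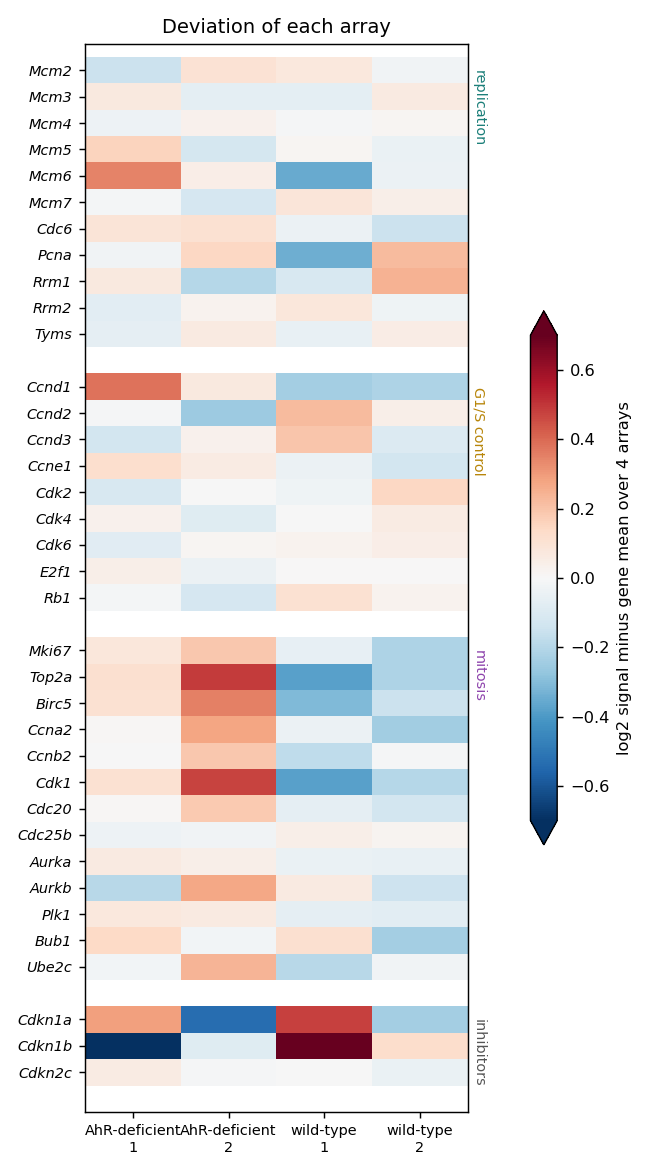
Colour gives each array's log2 signal minus the gene's mean over 4 arrays (colour scale limited to -0.7 and 0.7), with genes as rows and arrays as columns. The AhR-deficient replicate 2 column is red for most mitotic genes, while Cdkn1a is red in replicate 1 and blue in replicate 2 of both genotypes.

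Most mitotic genes were highest on the same array. AhR-deficient replicate 2 held the highest value for 9 of 13 mitotic members, AhR-deficient replicate 1 for 3 and wild-type replicate 1 for 1. Over all 12393 genes, the highest array was AhR-deficient replicate 1 for 3925, AhR-deficient replicate 2 for 2586, wild-type replicate 1 for 3384 and wild-type replicate 2 for 2498, and the lowest was wild-type replicate 1 for 3255 and wild-type replicate 2 for 3104. Wild-type replicate 2 held the lowest value for 6 mitotic members and wild-type replicate 1 for 5. AhR-deficient replicate 2 exceeded replicate 1 for 10 of the 13. The 11 replication members had no such common array: the highest was AhR-deficient replicate 2 for 4, AhR-deficient replicate 1 for 3 and each wild-type array for 2.

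Genes listed as markers of other cell types were read on the same arrays. Their counts stand beside 18.8% of all genes higher and 16.6% lower without overlap and the tally of highest arrays over all genes. Of 11 keratinocyte markers, 8 were highest in AhR-deficient replicate 1 and 0 in AhR-deficient replicate 2, and 5 were higher without overlap in AhR-deficient cells. Their summed linear signal was 674 and 516 without AhR against 463 and 470 in the wild type, and Krt15, Sfn and Col17a1 lay below the 25th percentile on all arrays. Of 10 T cell markers, 0 were higher and 3 lower without overlap, with sums of 503 and 517 against 578 and 545, and Cd5 below the 25th percentile on all arrays. Of 7 macrophage and monocyte markers, 5 were highest in AhR-deficient replicate 1, and 5 were higher and 1 lower without overlap, with sums of 1158 and 773 against 524 and 693 and Fcgr1 below the 25th percentile. Of 5 melanocyte markers, 0 were higher and 1 lower without overlap, with sums of 314 and 332 against 329 and 334. Bulk RNA cannot tell signal of other cells from that of the Langerhans cells themselves. The part of either in the mitotic values was not tested.

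**Figure D4:**
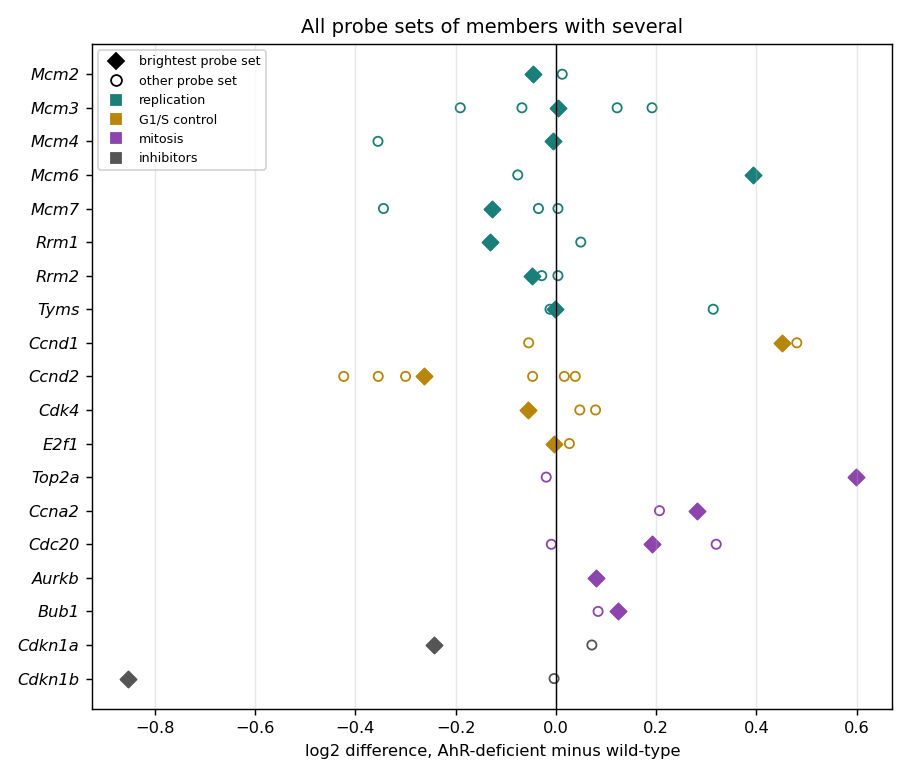
Log2 difference (x axis), AhR-deficient minus wild-type, for every probe set of the 19 members that have several; diamonds are the brightest probe set and open circles the others, coloured by role. The probe sets of Ccna2, Aurkb and Bub1 lie on the same side of 0, while those of Top2a and Cdkn1b are far apart. For Top2a and Cdkn1b the other probe set is dim.

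Probe sets of one gene often differed in sign. Some of the other probe sets, such as those of Top2a and Cdkn1b, lay below the 25th percentile on every array. Some brightest ones differed by almost nothing, with 0.004 for Mcm3, -0.005 for Mcm4, -0.003 for Tyms and -0.004 for E2f1. A sign says little in such cases. The 34 other probe sets of 19 members had the sign of the brightest one in 17 cases, namely 4 of 6 for mitotic, 7 of 15 for replication, 5 of 11 for G1/S control and 1 of 2 for inhibitor genes. Of the 34, 6 were higher and 1 lower without overlap, beside 18.8% and 16.6% of all genes on their brightest probe sets, and 0 passed in limma. With the probe sets of a gene averaged, 10 mitotic members were higher without overlap and 1 lower. Only 5 of the 13 mitotic members have several probe sets, so the others could not change in this setting.

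The wider lists, of genes of the same roles outside the members, held 126 measured genes of 141, and 0 passed in limma, where an unadjusted p under 0.05 was reached by 9 higher and 3 lower genes (over all genes, 3.50% and 3.04%). Of 42 wider mitotic genes, 12 were higher (28.6%) and 3 lower (7.14%) without overlap, beside 18.8% and 16.6% of all genes, and their median was 0.04, against 0.19 for the members. Nusap1, a spindle microtubule protein, read 6.07 and 6.24 against 5.84 and 5.80, a difference of 0.34 (SE 0.09). Ckap2 and Tacc3, also of the spindle, differed by 0.26 (SE 0.10) and 0.18 (SE 0.07). Foxm1, the transcription factor of G2 and mitotic genes, went the other way, with 6.55 and 6.53 against 6.80 and 6.80, a difference of -0.26 (SE 0.07, limma adjusted p = 0.732). Wild-type replicate 2 was the lowest array for 24 of the 42 and AhR-deficient replicate 2 the highest for 20.

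Of 43 wider replication genes, 4 were higher (9.30%) and 6 lower (14.0%) without overlap, both shares below the 18.8% and 16.6% of all genes, with a median of 0.01. Uhrf1, which maintains DNA methylation behind the fork, read 6.86 and 6.48 against 6.05 and 6.15, a difference of 0.57 (SE 0.15). The helicase-activating kinase was split, with its catalytic gene Cdc7 at -0.35 (SE 0.10) and its activator Dbf4 at 0.24 (SE 0.08). Gmnn, which encodes geminin, the inhibitor of origin licensing, differed by -0.27 (SE 0.08).

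Of 20 wider G1/S genes, 3 were higher (15%) and 4 lower (20%) without overlap, near the 18.8% and 16.6% of all genes, with a median of -0.04. Fbxw7, the ubiquitin ligase subunit that targets cyclin E, differed by 0.50 (SE 0.15), and Rbl1, the retinoblastoma relative p107, by 0.37 (SE 0.13). E2f5, a repressor E2F, differed by -0.32 (SE 0.13), and Mnat1, of the Cdk-activating kinase, by 0.23 (SE 0.14).

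Antiproliferative genes outside the members held the greatest differences of the wider lists. Of 21 measured, 4 were higher (19.0%) and 5 lower (23.8%) without overlap, beside 18.8% and 16.6% of all genes, and the median was 0.01. At an unadjusted p under 0.05, 4 were higher, as were 3.50% of all genes. Btg2 read 8.99 and 9.05 without AhR against 8.31 and 8.31 in the wild type. Its replicates lay close together, and the difference was 0.71 (SE 0.08, limma adjusted p = 0.292). Gadd45g, a stress-induced growth arrest gene, read 6.73 and 7.55 against 5.70 and 5.98, a difference of 1.30 (SE 0.31, limma adjusted p = 0.674). Cdkn2b, which encodes the Cdk4 and Cdk6 inhibitor p15, differed by 0.33 (SE 0.09), and Tob1, a relative of Btg2, by 0.38 (SE 0.14).

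**Figure D5:**
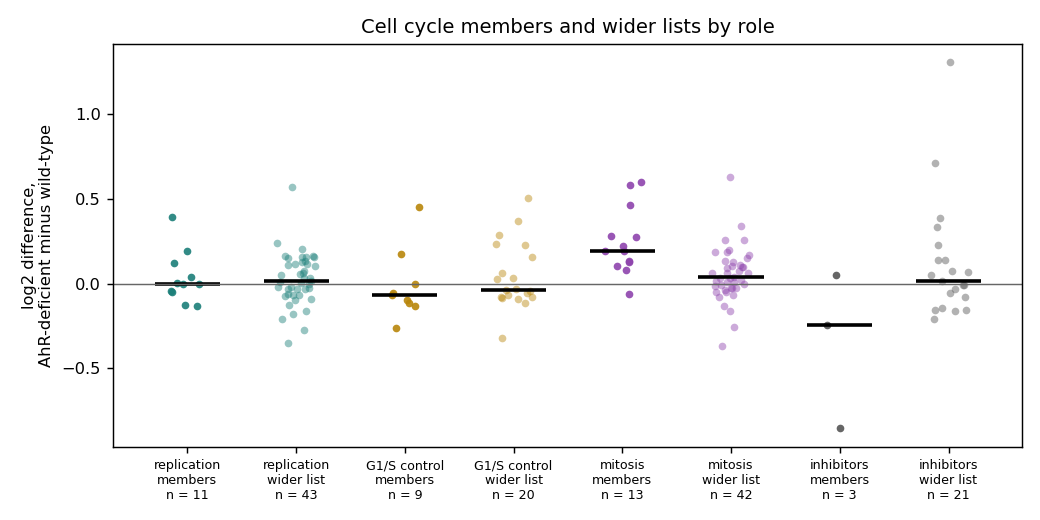
Log2 difference (y axis), AhR-deficient minus wild-type, of single genes by role, with members beside the wider list of the same role; black bars are medians. The mitotic members have a median of 0.19 and the wider mitotic list 0.04, and the replication groups sit at -0.003 and 0.01.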

How the data were processed

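Total RNA of sorted Langerhans cells was amplified, biotin labelled and hybridised to Affymetrix MOE430A arrays, per the labels' protocols. The values the authors deposited are log2 expression per probe set, made with affy and RMA per the submitters' processing notes; their versions are not given in the sources used here. Quantile normalisation within RMA forces equal array distributions, and depth has no meaning here: the number of arrays limits precision.

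Of 22690 probe sets, 64 controls were left out. The annotation gave 20380 probe sets 1 symbol, 691 several and 1555 none; all were fitted. The brightest probe set of a gene, by its mean on 4 arrays, stood for that gene, and 36 of 36 member symbols matched RefSeq by Entrez identifier. Genotypes were compared across all probe sets with limma 3.58.1 in R 4.3.3 (lmFit, eBayes, two-sided, 2 residual and 2.27 prior degrees of freedom, median SE 0.10), adjusted by Benjamini-Hochberg and called at 0.05. Only the limma fit was tested on simulated data, with changes larger than any member difference. P-values measure the spread between these arrays only. Promoter motifs were searched in RefSeq promoters, 250 bases before to 50 after a start.

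Members and lists were chosen with earlier results of these data known. All members may be named; wider lists name the 4 non-overlapping genes with the smallest p. Markers of 5 cell types were listed too. Alternatives were a replicate block, eBayes with trend or robust, dim probe sets left out, renormalisation, 16 added on the linear scale, other probe set choices and leaving out each array.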

Additional observations from a re-analysis of the deposited data

How the results depend on the processing

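No member passed under any alternative that kept every array. In every alternative run, 21 of 36 members, 10 of 13 mitotic ones, kept their direction. Much of that count was fixed in advance. The replicate block, the trend, the robust fit and leaving out dim probe sets do not change a difference. Leaving out any single array cannot reverse a member whose arrays do not overlap. Among the 21, only Cdk2 and Cdkn2c had overlapping arrays, so the count largely restates the lack of overlap. The count of called probe sets, 4 as reported, was 0 with a replicate block (replicate number as a block), 0 with the crossed pairing, 0 with 16 added on the linear scale, 8 with a trend, 2 with dim probe sets left out and 0 without any single array. Same-numbered arrays deviated with a correlation of -0.31 across probe sets, so the crossed pairing was chosen after seeing the data; with 2 arrays per group the numbers pair nothing by the labels. The replicate block changed no other call.

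With dim probe sets left out, 24 members were measured, of which 3 were lower without overlap (1 of G1/S control, 0 of mitosis) and 1 replication member higher. The lower members Cdc25b, Ccnd2 and Cdk6 and the higher replication member Cdc6 were themselves among the dim ones left out. With probe sets ending in _s_at, _x_at or _a_at left out, 30 members remained, with 0 replication and 0 mitotic members lower. Mcm7 and Cdc25b, the lower members of those roles, had only probe sets of these endings and dropped out. So did Cdc6, Cdk2, Birc5 and Aurkb. Leaving out 1 array, where over 29% of all genes lie apart in each direction, gave 9 to 13 members lower, 2 to 5 replication members higher and 2 to 5 lower, 4 to 5 G1/S members lower, 1 to 2 mitotic members lower, and a mitotic median of 0.14 to 0.31.

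Differences that turned without 1 array ranged from -0.15 to 0.31 for Aurkb, -0.050 to 0.30 for Bub1, -0.24 to 0.047 for Ccnd3, -0.12 to 0.0032 for Cdk4, -0.65 to 0.17 for Cdkn1a, -0.045 to 0.037 for E2f1, -0.17 to 0.080 for Mcm2, -0.065 to 0.073 for Mcm3, -0.039 to 0.030 for Mcm4, -0.10 to 0.18 for Mcm5, -0.16 to 0.40 for Pcna, -0.31 to 0.047 for Rrm1, -0.11 to 0.0085 for Rrm2 and -0.065 to 0.060 for Tyms. Mcm3 was -0.010 with quantile normalisation again and -0.0081 with median centring. With probe sets averaged, Tyms was 0.10, Cdk4 0.024 and E2f1 0.011. Without the probe sets of those endings, Mcm2 was 0.013, Cdk4 0.048, E2f1 0.027 and Top2a -0.019. The cause of these turns was not tested, except that the last setting replaced the brightest probe set with a dimmer one.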
